A study of Mus musculus with 5 samples.

Results

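Mitosis, spindle and kinetochore genes were examined in natural killer T (NKT) cells of the mouse thymus with and without interleukin-15 (IL-15). The set held 40 genes chosen by name for their roles in mitosis, and all 40 had a probe, among 20022 genes with a named probe in all. Each gene was represented by its brightest probe. Such cells carry a T-cell receptor for lipids held by CD1d. They were sorted as CD3e-positive, CD1d-tetramer-positive T cells, each sample from 10 pooled thymi of mice on the C57BL/6 background. The 3 wild-type samples carried the wt genotype and the 2 IL15ko samples the IL15-/- genotype, that is, they came from mice deficient in IL-15. The labels name no treatment and give no age. Whether the samples of a group came from separate pools is not said, so the p-values rest on a spread that could be technical.

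Cells that divide build the mitotic machinery anew in each cycle. Transcripts of most of these genes are scarce in resting cells and accumulate in G2 and mitosis, when cyclin A and B with the kinase CDK1, the transcription factor FOXM1 and the MuvB complexes drive them. Their proteins condense the chromosomes, build the spindle, attach chromosomes to it through kinetochores, hold anaphase back until attachment is complete, and split the cell. NKT cells divide in the thymus mainly as young precursors, before they mature and come to depend on IL-15 for survival, and mature thymic NKT cells cycle little. The study set gene expression in thymic NKT cells of IL-15-deficient mice against that of wild-type mice.

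Promoters of mitotic genes carry a shared element, the cell cycle gene homology region (CHR), which MuvB complexes bind, often beside CCAAT boxes, which NF-Y binds. The 120 bases before the transcript start are shown for 8 members, from RefSeq sequences of mouse build GRCm38.p6, to show this shared layout and members without it. Cdk1, Ccnb2, Cdc20 and Ube2c drive mitosis or end it, Kif15 and Kif11 are spindle motors, and Nuf2 and Tacc3 are members that were higher in IL15ko but hold neither motif. The Ccnb2 stretch holds CCAAT only, since its nearest CHR letters begin 5 bases after the start. Capitals mark the CHR letters TTTGAA or TTCGAA and the letters CCAAT, on either strand, so that TTCAAA and ATTGG are the same motifs read on the other strand.
Cdk1, chr10:69352913-69353032, minus strand: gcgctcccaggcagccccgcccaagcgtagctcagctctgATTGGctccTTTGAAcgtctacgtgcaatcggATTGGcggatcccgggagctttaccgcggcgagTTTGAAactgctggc
Ccnb2, chr9:70421555-70421674, minus strand: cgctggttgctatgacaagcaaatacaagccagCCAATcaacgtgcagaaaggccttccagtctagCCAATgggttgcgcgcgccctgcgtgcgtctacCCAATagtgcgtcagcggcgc
Cdc20, chr4:118437344-118437463, minus strand: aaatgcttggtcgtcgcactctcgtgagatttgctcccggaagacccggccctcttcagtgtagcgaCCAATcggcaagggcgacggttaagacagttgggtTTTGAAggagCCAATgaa
Ube2c, chr2:164769809-164769928, plus strand: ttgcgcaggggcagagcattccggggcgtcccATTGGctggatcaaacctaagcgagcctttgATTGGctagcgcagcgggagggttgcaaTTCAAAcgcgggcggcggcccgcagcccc
Kif15, chr9:122950961-122951080, plus strand: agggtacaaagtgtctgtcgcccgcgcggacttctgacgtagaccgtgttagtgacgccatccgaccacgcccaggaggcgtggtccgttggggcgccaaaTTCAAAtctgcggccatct
Kif11, chr19:37376262-37376381, plus strand: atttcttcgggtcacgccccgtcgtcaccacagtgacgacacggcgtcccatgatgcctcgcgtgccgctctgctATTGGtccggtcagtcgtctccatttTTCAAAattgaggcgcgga
Nuf2, chr1:169531465-169531584, minus strand: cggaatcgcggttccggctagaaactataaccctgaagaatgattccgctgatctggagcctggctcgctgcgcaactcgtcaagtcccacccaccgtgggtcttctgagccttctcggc
Tacc3, chr5:33658008-33658127, plus strand: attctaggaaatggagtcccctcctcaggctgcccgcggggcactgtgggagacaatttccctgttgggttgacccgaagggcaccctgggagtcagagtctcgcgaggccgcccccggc

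Windows of 300 bases, from 250 before to 50 after the transcript start, were held for 33 of the 40 members. Foxm1, Incenp, Tpx2, Smc4, Aurkb, Ccna2 and Kif20a had no entry. CHR letters stood in 26 of the 33 (78.8%), against 16.7% of the 9635 tested genes with a window and 21.7% of all 27025 genes with one. TTTGAA stood in 25 members and TTCGAA, which reads the same on both strands, in 3, and Bub1b and Top2a held both forms. CCAAT stood in 24 of the 33 members (72.7%), against 42.9% of the tested genes. Both motifs stood in 22 members (66.7%), against 6.94% of the tested genes. Letters of both motifs overlapped in 1 member, Cdca8. These matches describe the sequence and are not evidence of binding in these cells.

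Among 69 further genes with periodic mitotic expression, 55 had a window and 36 of these (65.5%) held CHR letters. Among genes of the constitutive mitotic machinery, which cells make at all times, 8 of 30 did (26.7%), and among genes of the G1/S transition and DNA replication, 7 of 39 did (17.9%). The CHR letters of most members lay close to the start. In 24 members a match began within 50 bases of the transcript start, on either side.

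**Figure D1:**
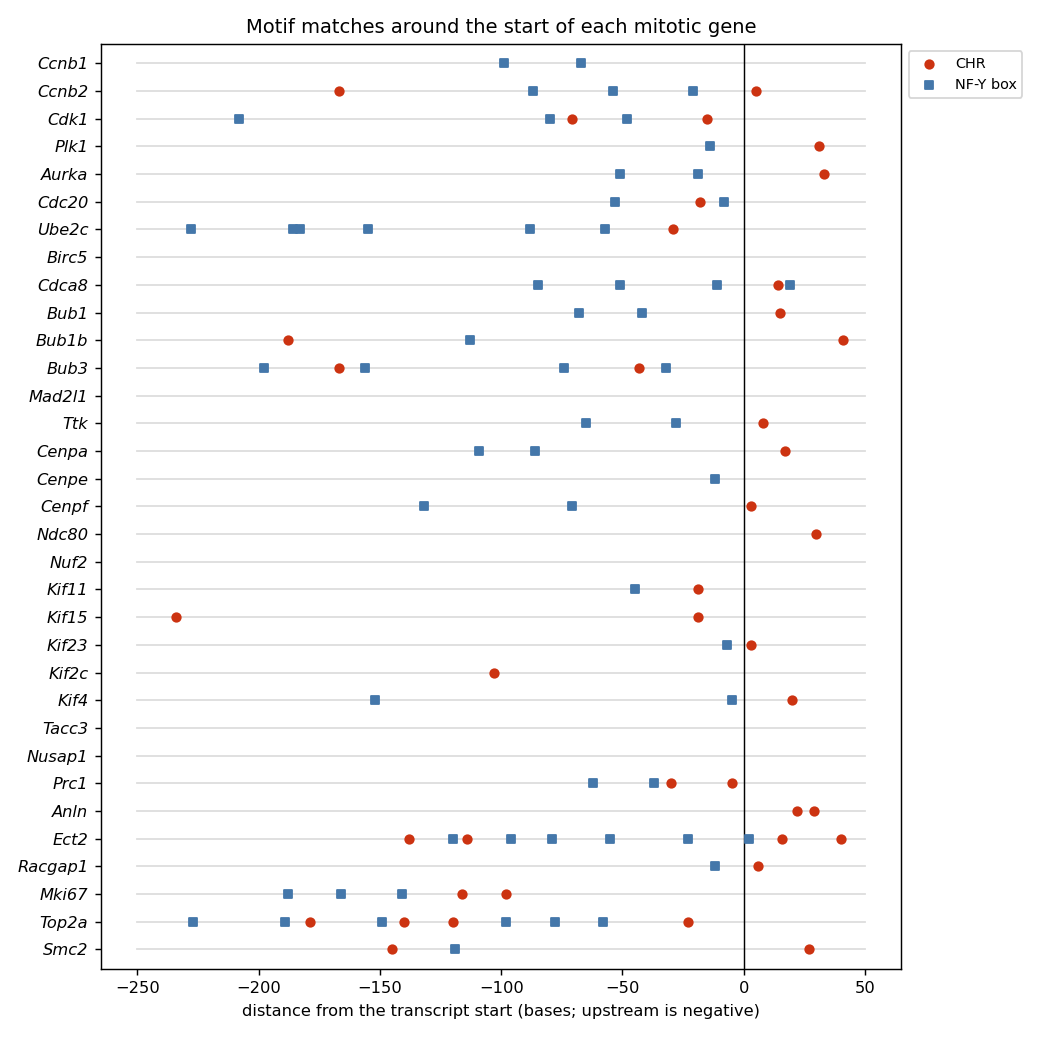
Position of each motif match in the windows of 33 members, in bases from the transcript start (x axis, upstream negative), 1 line per gene. Circles are CHR letters and squares (NF-Y box) are CCAAT letters; 24 of the 33 genes have a circle within 50 bases of the start, and Birc5, Mad2l1, Nuf2, Tacc3 and Nusap1 have no mark.

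Each value below is a scaled intensity, the background-subtracted probe signal after every array was brought to the same 75th percentile of the probes detected on all arrays. Levels of different probes are not comparable. Wild-type 1 to 3 had 44.6%, 46.8% and 49.6% of the probes well above background, and IL15ko 1 and 2 had 45.2% and 33.9%, so IL15ko 2 was the dimmest array. Wild-type 1 and 2 were the closest pair. Over the 11996 tested genes their log2 differences had a robust SD of 0.17, against 0.34 to 0.62 for the other pairs. The T-cell genes Cd3e, Cd3d, Cd3g, Cd247 and Lck and the NKT-lineage factor gene Zbtb16 were well above background on all 5 arrays. Zbtb16 was called higher in IL15ko and the others were not called, but 4 of the 6 had a lower mean there. Both IL15ko arrays lay below all wild-type arrays in Cd3d and Cd3g, where 22.1% of all tested genes did so. Cd3g had 13463, 14469 and 12634 in wild-type and 11952 and 5276 in IL15ko. Of 8 markers of immature thymocytes, which divide and could contaminate the sort, 5 (Rag1, Rag2, Ptcra, Cd8a and Cd8b1) were well above background on no array. Markers detected on no array were 4 of 5 for B cells, 3 of 6 for myeloid cells, 2 of 4 for erythroid cells and 2 of 6 for thymic stroma. Of the 6 genes listed for NK cells and NKT1 cells, Klrb1c, Gzma, Gzmb and Tbx21 were lower in IL15ko, while Ncr1 was on no array and Eomes on 1 wild-type array.

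Most mitotic genes had a higher mean in IL15ko, and few passed the test. Of the 40 members, 37 had a probe well above background on at least 2 arrays and were tested. A higher mean in IL15ko was seen in 36 of these, against 51.4% of all tested genes. Limma called 7 higher and 0 lower at a Benjamini-Hochberg adjusted p under 0.05, which is 18.9% of the members tested, where 3.75% of all tested genes were called higher and 3.58% lower. The 7 were Nuf2, Cenpa, Kif15, Kif20a, Cdk1, Tacc3 and Mad2l1. Of these, Kif15 met the detection filter through the IL15ko arrays alone, so its call is not independent of its being high there. At an unadjusted p under 0.05, 24 members passed, against 27.5% of all tested genes in either direction. The median log2 difference, IL15ko minus wild-type, was 0.98 over the members and 0.01 over all tested genes. At least a 2-fold higher mean was seen in 15 of the 37, against 4.14% of all tested genes. In these sorted bulk samples a larger share of dividing cells and more of each transcript per dividing cell cannot be told apart.

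Both IL15ko arrays lay above all 3 wild-type arrays in 33 of the 37 members, where 25.1% of all tested genes did so and 22.1% lay below. Bub3, Ccnb1, Ndc80 and Kif2c were the 4 members whose groups overlapped. The count of 7 calls rests on few arrays. Leaving out wild-type 1 or wild-type 2 brought it to 0, where only 0.00834% and 0.308% of all tested genes were called higher. Without these arrays 26 and 24 members passed at an unadjusted p under 0.05 in limma. The share of all tested genes that did so was not computed for these fits, so the counts have no background beside them. Leaving out wild-type 3 brought the count to 5, where 3.12% of all tested genes were called higher. With the mean of wild-type 1 and 2 for both, it was 0, where 0.275% of all tested genes were called. Leaving out IL15ko 1 or IL15ko 2 leaves 1 array in that group, so only the median log2 difference is given, 0.89 and 1.05. The median log2 difference stayed between 0.67 and 1.1 over the same settings. An exact two-sided permutation test of 1 gene cannot go below p = 0.1 in this design.

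**Figure D2:**
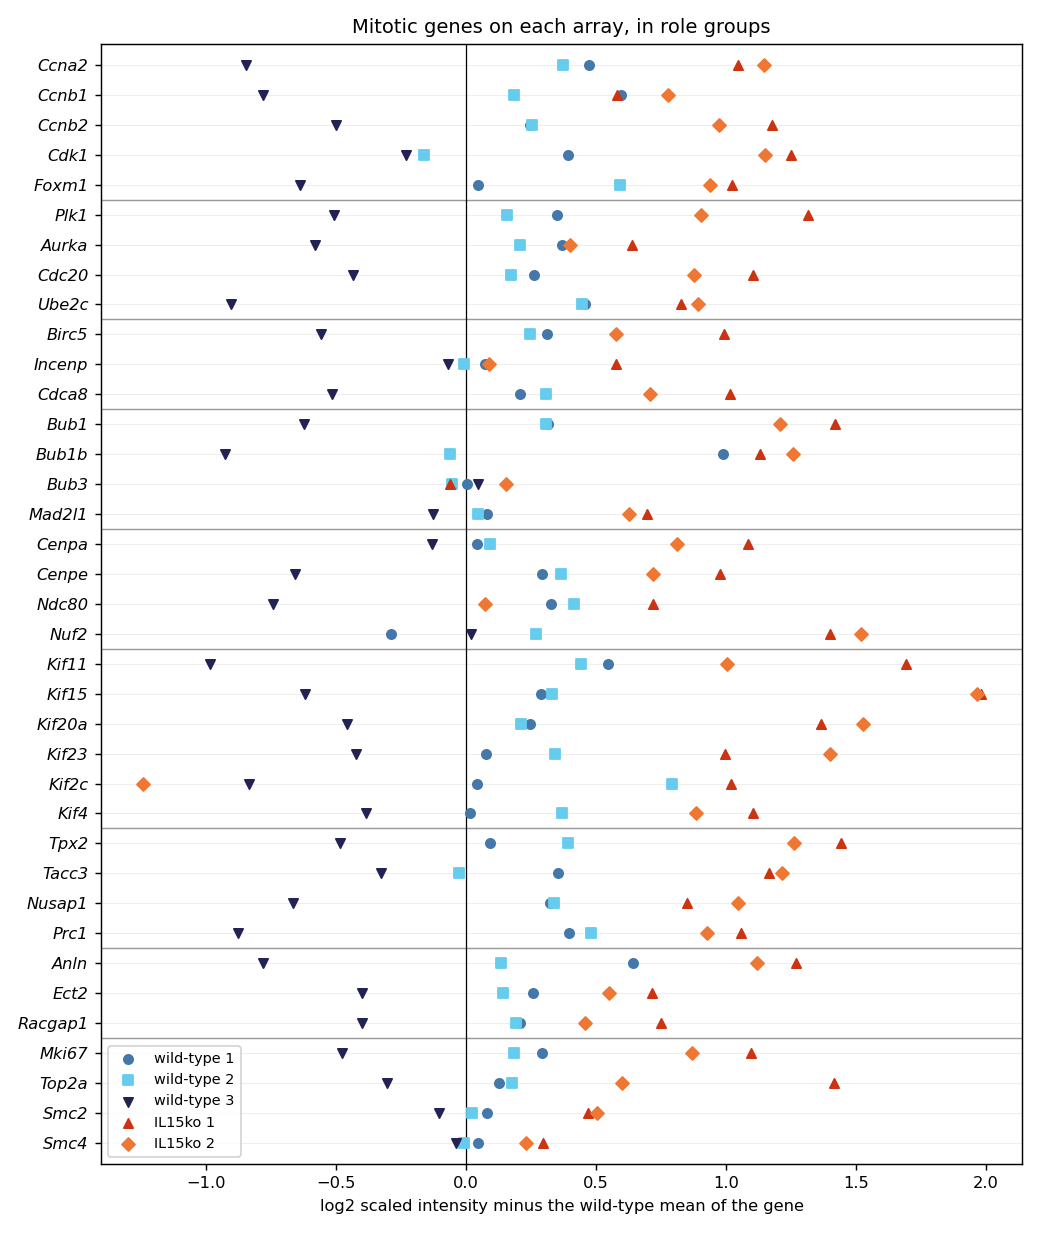
Log2 scaled intensity of each tested member on each of the 5 arrays, minus its wild-type mean (x axis), 1 line per gene, with grey lines between role groups. Both IL15ko arrays stand right of all wild-type arrays in 33 of the 37 genes, and wild-type 3 is the lowest of the 5 in 34.

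Wild-type 3 stood apart from the other wild-type samples in these genes. It was the lowest of the 5 arrays in 34 of the 37 members, where it was so in 24.8% of all tested genes. Its median distance below the mean of wild-type 1 and 2 was 0.75 on the log2 scale over the members (a median difference of -0.75) and 0.00 over all tested genes. The mean of the IL15ko arrays was above that of wild-type 1 and 2 by a median of 0.67. In 18 of the 37 members wild-type 3 lay further from wild-type 1 and 2 than the IL15ko mean did. The spread inside the wild-type group was thus as large as the distance from wild-type 1 and 2 to IL15ko for about as many members as not. Wild-type 3 was also low in Dntt, an immature thymocyte gene, at 28.1 against 119 and 102 on wild-type 1 and 2 and 43.5 and 125 on IL15ko 1 and 2. The summed level of the 8 immature thymocyte markers ran from 49.6 (wild-type 3) to 184 in wild-type and was 73.6 and 182 in IL15ko. The B-cell markers summed to 51.3 to 77.5 in wild-type and 89.4 and 105 in IL15ko. Of these Cd79b alone was well above background, at 44.4, 26.5 and 35.5 in wild-type and 69.9 and 61.8 in IL15ko (limma adjusted p = 0.0881). The sums of both lists include probes that were well above background on no array. The myeloid markers summed to 4239 to 6126 in wild-type and 4730 and 10959 in IL15ko, mostly from Itgam. Csf1r, another myeloid gene, had a log2 difference of -2.29 ± 0.46 (limma adjusted p = 0.0509). The erythroid sums lay between 25.8 and 42.9 and the stromal sums between 30.3 and 87.5 over the 5 arrays. The part of other cells in these levels was not tested.

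Without wild-type 3, limma called 5 members higher, where 3.12% of all tested genes were. These were Kif15, Kif20a and Nuf2, which were also called with all arrays, and Bub1 and Tpx2. Cenpa, Cdk1, Tacc3 and Mad2l1 had adjusted p-values of 0.0536, 0.0714, 0.0543 and 0.0667 there, with log2 differences of 0.88, 1.08, 1.03 and 0.60. The difference shrank most in Kif11, from 1.35 to 0.86, and in Bub1b, from 1.19 to 0.73. In these members wild-type 3 lay furthest below the other wild-type arrays, so the larger change follows by arithmetic and is no separate observation.

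**Figure D3:**
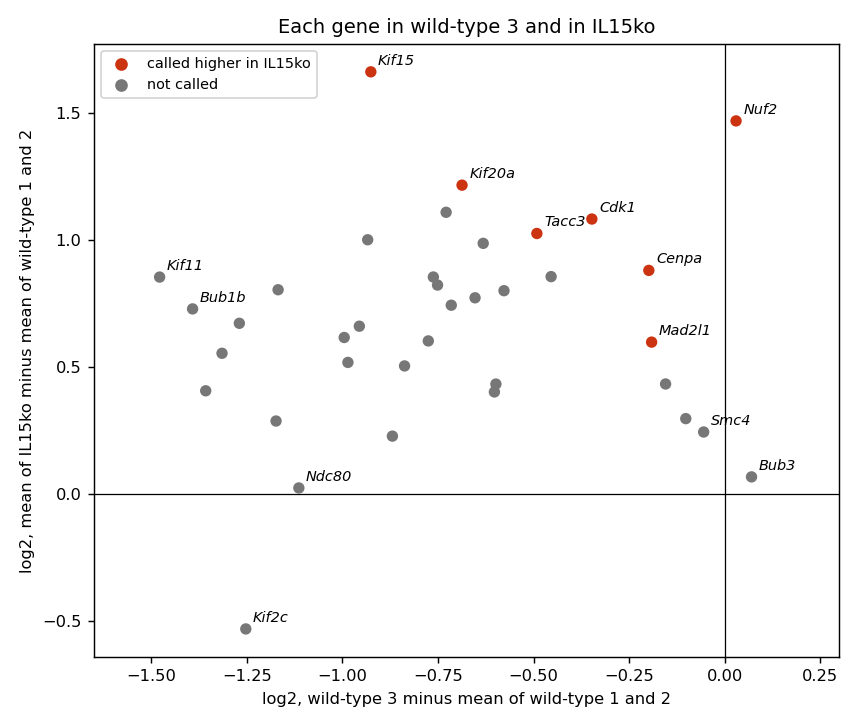
Each tested member by its log2 distance from the mean of wild-type 1 and 2 in wild-type 3 (x axis) and in the mean of IL15ko (y axis); red points were called higher in IL15ko with all arrays. Both axes subtract the same mean, so they share its error. All but Bub3 and Nuf2 lie left of 0, and all but Kif2c lie above 0.

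Cyclins A and B bind CDK1 and switch it on, and Foxm1 encodes the transcription factor that raises many mitotic genes. Cdk1 had scaled intensities of 32.5, 22.1 and 21.1 on wild-type 1 to 3 and 58.8 and 55.0 on IL15ko 1 and 2. Both IL15ko arrays lay above all wild-type arrays, the rise was 2.30-fold (95% confidence interval 1.54 to 3.42), and the log2 difference was 1.2 ± 0.23 (SE) with a limma adjusted p of 0.0428. Cdk1 is uncertain, since its other measured probe ran the opposite way, with a log2 difference of -1.0, and with the mean over its probes the difference was 0.10 (adjusted p = 0.854).

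Ccnb2, a B-type cyclin gene, had 584, 588 and 348 in wild-type and 1112 and 967 in IL15ko. Ccna2, the S and G2 phase cyclin gene, had 205, 192 and 82.3 in wild-type and 306 and 327 in IL15ko. Foxm1 had 59.3, 86.7 and 37.0 in wild-type and 117 and 110.3 in IL15ko. The groups of all 3 did not overlap, but wild-type 3 was low in each and none was called, with log2 differences of 1.07 ± 0.28, 1.1 ± 0.43 and 0.98 ± 0.37 and limma adjusted p-values of 0.0827, 0.18 and 0.166. Ccnb1, the other B-type cyclin, had 156, 117 and 60.0 in wild-type and 155 and 177 in IL15ko. Its IL15ko 1 value lay below that of wild-type 1, and its log2 difference was 0.68 ± 0.42 (limma adjusted p = 0.349), the lowest of the group. Its other measured probes had differences of 1.24 and -0.09. Foxm1 also had another probe that ran the opposite way, with a difference of -0.17 and detection on 2 arrays, and the mean over its probes gave 0.41.

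Plk1 and Aurka encode kinases that mature the spindle poles, Cdc20 activates the anaphase-promoting complex, and Ube2c encodes the ubiquitin-conjugating enzyme of that complex. None of the 4 was called, although IL15ko lay above wild-type on every array in each. Cdc20 had the smallest p, with 633, 595 and 390.3 in wild-type and 1136 and 969 in IL15ko, a log2 difference of 0.99 ± 0.25 and a limma adjusted p of 0.0807. Plk1 had 460.4, 404 and 254 in wild-type and 899 and 677 in IL15ko (log2 difference 1.11 ± 0.30, limma adjusted p = 0.0922). Aurka had the lowest difference of the 4, at 0.52 ± 0.32, with 215, 192 and 111 in wild-type and 259 and 219.6 in IL15ko, so that IL15ko 2 barely passed wild-type 1. Ube2c, with 326, 323 and 127 in wild-type and 421 and 441 in IL15ko, had one of the widest gaps between wild-type 3 and the other wild-type arrays, a log2 difference of -1.36.

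The chromosomal passenger complex, which corrects faulty attachments, is made of the kinase Aurora B (Aurkb), survivin (Birc5), borealin (Cdca8) and INCENP (Incenp). The probe of Aurkb was well above background on no array, so it gave no level. Of the 3 measured members none was called. Cdca8 had the smallest p, with 533, 572 and 323 in wild-type and 934 and 754 in IL15ko (log2 difference 0.86 ± 0.29, limma adjusted p = 0.138). Birc5 had 1181, 1127 and 646 in wild-type and 1890.4 and 1419 in IL15ko (log2 difference 0.78 ± 0.32), and its other probes had differences of 0.61 and 0.93. Incenp differed least, with 1933, 1830.1 and 1753 in wild-type and 2738 and 1953 in IL15ko, so that IL15ko 2 lay close to wild-type 1. Its log2 difference was 0.33 ± 0.18, and that of its other probe was 0.38.

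The spindle checkpoint holds back anaphase while any kinetochore is unattached. Mad2l1, which encodes its inhibitor MAD2, had 193, 188 and 167 in wild-type and 296 and 282 in IL15ko. These groups did not overlap, and the rise was 1.58-fold (95% confidence interval 1.25 to 2.00), with a log2 difference of 0.66 ± 0.13 and a limma adjusted p of 0.0493. Mad2l1 is uncertain too. Its other 2 probes had log2 differences of -0.06 and -0.10, and with the mean over its probes the difference was 0.17 (adjusted p = 0.743).

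Bub1, a checkpoint kinase gene, had 38.2, 37.9 and 19.9 in wild-type and 82.0 and 70.9 in IL15ko. It did not pass with all arrays (log2 difference 1.31 ± 0.33, limma adjusted p = 0.0794) but did without wild-type 3 (1.00 ± 0.14, limma adjusted p = 0.0427). Bub1b, which encodes BUBR1, had 113, 54.9 and 30.1 in wild-type, the widest spread of the wild-type arrays among the members (SD of log2 values 0.96, n = 3), and 125 and 137 in IL15ko. Bub3, which brings the BUB kinases to kinetochores and has roles outside mitosis, had 1445, 1389 and 1487 in wild-type and 1379.6 and 1600.0 in IL15ko. Its groups overlapped and wild-type 3 was not low, and the log2 difference was 0.05 ± 0.13, with a 95% confidence interval of the fold of 0.817 to 1.30. Bub3 holds CHR and CCAAT letters in its windows like most other members. The probe of Ttk, the checkpoint kinase MPS1, was well above background on no array.

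Kinetochores are assembled on centromeric chromatin and bind microtubules. Nuf2, a subunit of the microtubule-binding NDC80 complex, had 24.3, 35.7 and 30.1 in wild-type and 78.3 and 85.1 in IL15ko. Wild-type 3 lay between the other wild-type arrays here, and both IL15ko arrays were more than double the highest of them. Nuf2 rose 2.75-fold (95% confidence interval 1.95 to 3.89), with a log2 difference of 1.46 ± 0.20 and a limma adjusted p of 0.0214, and it was called in 10 of 17 alternative settings, the most of any member. Its second probe was well above background on no array.

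Cenpa, the histone H3 variant that marks centromeres, had 355, 368 and 315 in wild-type and 732 and 606 in IL15ko. Its groups did not overlap and wild-type 3 was close to the others. It rose 1.93-fold (95% confidence interval 1.47 to 2.52), with a log2 difference of 0.95 ± 0.15 and a limma adjusted p of 0.0304. Cenpe, a kinetochore motor, had 320.0, 336 and 166 in wild-type and 514 and 430.2 in IL15ko and did not pass (log2 difference 0.85 ± 0.35, limma adjusted p = 0.194). Ndc80, the partner of Nuf2 in its complex, had 91.8, 97.8 and 43.8 in wild-type and 121 and 77.0 in IL15ko. The Ndc80 groups overlapped, and its log2 difference was 0.40 ± 0.42 (limma adjusted p = 0.574) and 0.03 without wild-type 3. The probe of Cenpf, a large kinetochore protein, was well above background on no array.

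Kinesins are motors that slide and shorten spindle microtubules. Kif15, which helps to keep the spindle bipolar, was the member with the largest difference. It had 13.8, 14.2 and 7.38 in wild-type, where no array rated it well above background, and 44.6 and 44.1 in IL15ko, where it was so on both. Its fold therefore has only a bound, in which each wild-type array counts at its lowest signal well above background, or at that of Kif15 where higher. By the group means Kif15 was at least 3.86-fold higher in IL15ko (measured log2 difference 1.97 ± 0.32, limma adjusted p = 0.0312). Its probe entered the test through the IL15ko arrays alone, so the test was not independent of its being high there. The lowest signals well above background were 14.4, 14.3 and 6.92 on the wild-type arrays. The bound allows for the dim wild-type signals but not for the spread between arrays. The 95% confidence interval of the measured fold was 2.23 to 6.90, so its lower end lay below the bound. Without wild-type 3 the log2 difference was 1.66. The bound thus holds only for the means of all arrays with this background correction. With normexp and an offset of 50 the log2 difference was 1.06 (adjusted p = 0.301), and in the authors' deposited values it was 1.62 (adjusted p = 0.0538).

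Kif20a, a motor of the central spindle and cytokinesis, had 159, 155 and 97.7 in wild-type and 346 and 387 in IL15ko. It rose 2.73-fold (95% confidence interval 1.74 to 4.27), with a log2 difference of 1.45 ± 0.26 and a limma adjusted p of 0.0369, and remained called without wild-type 3 (1.22 ± 0.13, limma adjusted p = 0.0353). Kif11, the motor Eg5 that pushes the spindle poles apart, had 49.3, 45.9 and 17.1 in wild-type and 109 and 67.8 in IL15ko. Its log2 difference of 1.35 ± 0.53 did not pass (limma adjusted p = 0.181), with wild-type 3 further from the other wild-type arrays than in any other member. Kif23, a motor of the cytokinetic midzone, and Kif4, which organises chromosomes and the midzone, had differences of 1.2 ± 0.27 and 0.99 ± 0.25 and limma adjusted p-values of 0.0645 and 0.0788.

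Kif2c, which encodes the microtubule-shortening kinesin MCAK, was the only tested member with a lower mean in IL15ko. It had 18.5, 31.1 and 10.1 in wild-type and 36.3 and 7.58 in IL15ko, and was not well above background on IL15ko 2, the dimmest array, where the lowest signal so rated was 34.0. IL15ko 1 was thus the highest of the 5 arrays and IL15ko 2 the lowest. The log2 difference was -0.11 ± 0.79 (limma adjusted p = 0.939) and 1.02 without IL15ko 2, and its other probe had a difference of 0.77.

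The proteins of Tpx2, Tacc3, Nusap1 and Prc1 bind, bundle or nucleate spindle microtubules. Tacc3, which bundles spindle fibres, had 510.4, 392 and 318 in wild-type and 896 and 927 in IL15ko. The groups were well separated, and Tacc3 rose 2.28-fold (95% confidence interval 1.54 to 3.39), with a log2 difference of 1.19 ± 0.22 and a limma adjusted p of 0.0428. Tpx2, which activates Aurora A, had 98.1, 121 and 65.7 in wild-type and 250.3 and 221 in IL15ko, and narrowly missed the threshold (log2 difference 1.35 ± 0.28, limma adjusted p = 0.0528), passing it without wild-type 3 (limma adjusted p = 0.0472). Tpx2 is uncertain as well. Its other probe, named through a different transcript and dimmer, had a difference of -0.94, and the lowest difference of Tpx2 over the alternative settings was 0.21. Nusap1 had the lowest difference of the 4, at 0.95 ± 0.35 (limma adjusted p = 0.16), with 161, 163 and 81.4 in wild-type and 233 and 266 in IL15ko. Prc1, which bundles the midzone, had a difference of 0.99 ± 0.44, and the groups overlapped in neither.

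Anln, Ect2 and Racgap1 act in cytokinesis, as a scaffold of the contractile ring, as the activator of RhoA and as a subunit of centralspindlin. None was called, though both IL15ko arrays lay above every wild-type array in all 3. Anln had 54.2, 38.2 and 20.2 in wild-type and 83.7 and 75.6 in IL15ko (log2 difference 1.19 ± 0.42, limma adjusted p = 0.151). Racgap1, the lowest of the 3, had 319, 315 and 209 in wild-type and 464 and 379 in IL15ko (log2 difference 0.60 ± 0.24, limma adjusted p = 0.186), and its other probe, well above background on all 5 arrays, also had a difference of 0.60. Ect2 had a difference of 0.63 ± 0.23.

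Mki67 encodes Ki-67, the usual marker of dividing cells, and coats mitotic chromosomes. It had 1297, 1204 and 761 in wild-type and 2265 and 1934 in IL15ko. Both IL15ko arrays lay above all wild-type arrays, by 1.98-fold on average (95% confidence interval 1.23 to 3.17), but the log2 difference of 0.98 ± 0.27 did not pass (limma adjusted p = 0.0936). The other probe of Mki67 gave nearly the same difference, 0.94. Top2a, the topoisomerase that untangles sister chromatids, had 198, 205 and 147 in wild-type and 484 and 275 in IL15ko, with IL15ko 1 well above IL15ko 2 (log2 difference 1.01 ± 0.30, limma adjusted p = 0.107). Smc2 and Smc4 form the core of condensin and differed less. Smc2 had 218, 209 and 192 in wild-type and 285 and 292 in IL15ko (log2 difference 0.49 ± 0.13, limma adjusted p = 0.086), the smallest p of this group. Smc4 had 769.7, 741 and 727 in wild-type and 916 and 875 in IL15ko, a narrow but separate range, with a log2 difference of 0.26 ± 0.12 (limma adjusted p = 0.226). Wild-type 3 lay close to the other wild-type arrays in both.

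**Figure D4:**
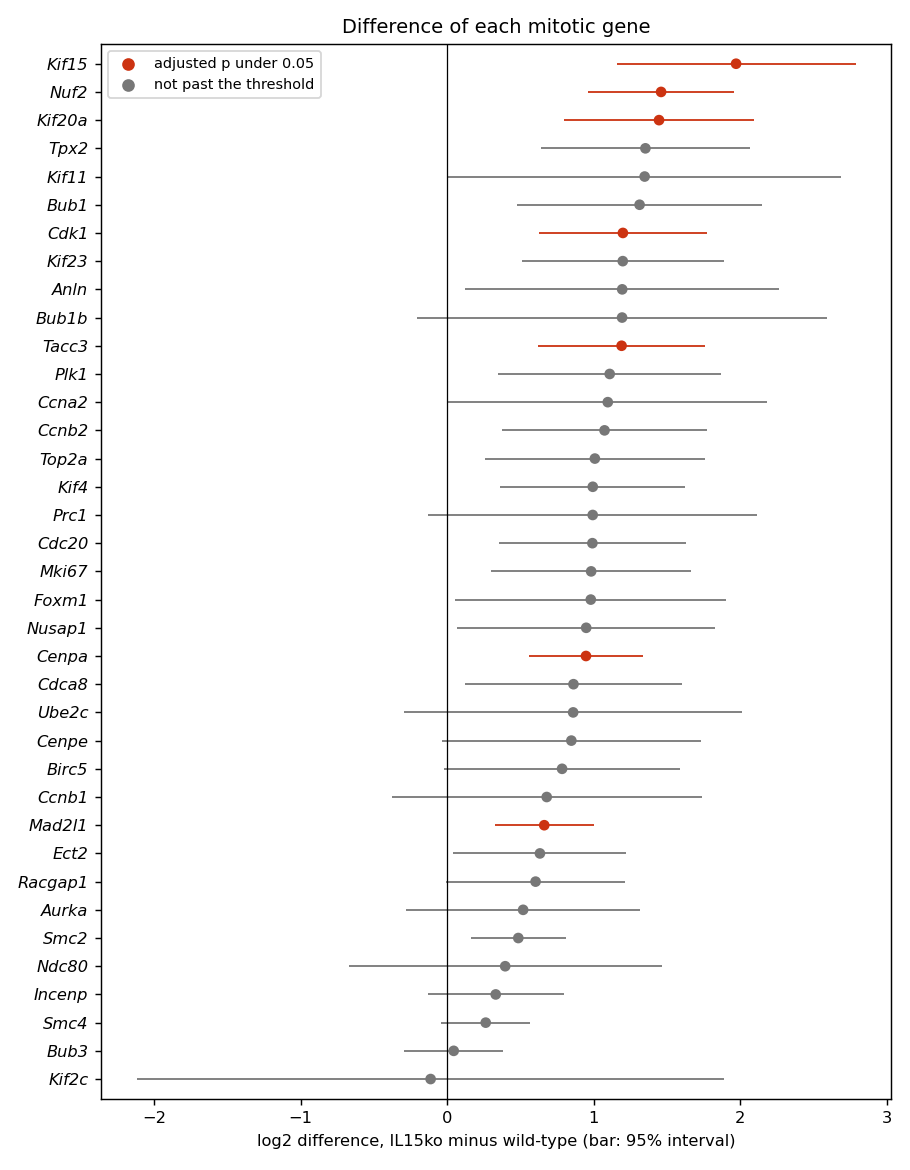
Log2 difference of each tested member, IL15ko minus wild-type (x axis), with its 95% confidence interval from limma, ordered by size. Red marks the 7 genes with an adjusted p under 0.05; the values run from -0.11 for Kif2c to 1.97 for Kif15.

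By role group, the kinesins had the highest median log2 difference, 1.27, and the cytokinesis genes the lowest, 0.63, with 0.73 for the chromosome structure genes and 0.78 for the passenger complex. The calls fell on 2 of 4 measured kinetochore genes, 2 of 6 kinesins and 1 each of the cyclin and CDK group, the checkpoint and the spindle-binding proteins. Differences between role groups were not tested. A total of 12 members had a further probe well above background on at least 2 arrays, 15 such probes in all, and 9 of the 15 had a higher mean in IL15ko. By the brightest probe of each gene, 36 of the 37 tested members and 51.4% of all tested genes did so. The further probes thus lay nearer to the share of all genes. The 3 members with both CHR letters and a call were Cdk1, Cenpa and Kif15. The median log2 difference was 0.99 over the 24 tested members with CHR letters and 0.85 over the 7 with a window and none, of which Nuf2, Mad2l1 and Tacc3 were called.

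Other mitotic genes with periodic expression, none of them among the 40, had a higher mean in IL15ko in 56 of 61 tested. Of all tested genes 51.4% did. Of the 61, 6 were called higher (9.84%) and 0 lower, and the median log2 difference was 0.73. The called genes were the kinetochore genes Cenpn, Cenpk and Cenpp, the phosphatase gene Cdc25b, which activates CDK1, the mitotic kinase gene Pbk, and Ncaph, a condensin subunit. Cenpk had 89.8, 72.9 and 69.5 in wild-type and 192 and 209 in IL15ko (2.60-fold, limma adjusted p = 0.0175). Cenpp had 39.1, 34.6 and 32.7 in wild-type and 74.8 and 75.3 in IL15ko (2.12-fold, limma adjusted p = 0.0186). Wild-type 3 was close to the other wild-type arrays in both. Cenpn, well above background on 1 array of each group only, had a log2 difference of 1.64 ± 0.13 (limma adjusted p = 0.00852), so its fold is uncertain. Cdc25b had 506, 627 and 626 in wild-type and 1239 and 1110.2 in IL15ko (2.01-fold, limma adjusted p = 0.0289). Knstrn, a spindle adaptor gene, had the lowest difference of the list, -0.50 ± 0.67, with 7847, 7481 and 1888 in wild-type and 3430.0 and 3359.8 in IL15ko, so that both IL15ko arrays lay between wild-type 3 and the others.

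Constitutive mitotic machinery, which includes cohesin, subunits of the anaphase-promoting complex and dynein, had a median difference near 0. Of 34 tested genes 1 was called higher (2.94%) and 0 lower, and the median log2 difference was 0.09. The called gene was Tubg1, which encodes gamma-tubulin, with 401, 439 and 361 in wild-type and 745 and 882 in IL15ko (2.03-fold, limma adjusted p = 0.0273). Next by p were Nsl1 (log2 difference 0.84, limma adjusted p = 0.0876), Cdc27 (0.53, limma adjusted p = 0.127) and Pmf1 (0.51, limma adjusted p = 0.139), and the lowest was Cdc23 (-0.37 ± 0.46). Wild-type 3 lay 0.03 below wild-type 1 and 2 by the median over this list (a log2 difference of -0.03).

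Among genes of G1/S and DNA replication, 13 of 47 tested were called higher (27.7%) and 0 lower, and 4 had a lower mean in IL15ko, with a median log2 difference of 0.66. The called gene Clspn had 13.1, 12.9 and 6.72 in wild-type and 38.3 and 47.0 in IL15ko. It met the detection filter through the IL15ko arrays alone, so its call is not independent of its being high there. Chaf1a, Pola1, Mcm5 and Dscc1 had the smallest p-values, and Mcm5, a subunit of the replicative helicase, had 1226, 1214 and 1188 in wild-type and 2415 and 2278 in IL15ko (1.94-fold, limma adjusted p = 0.0185). The lowest was Ung, a DNA repair glycosylase gene (log2 difference -0.58 ± 0.35, limma adjusted p = 0.345). The median over this list was lower in wild-type 3 than in wild-type 1 and 2 by less than over the mitotic members, with log2 differences of -0.14 and -0.75. The median distance of IL15ko from wild-type 1 and 2 was similar, 0.63 and 0.67. Whether the lists differ was not tested. Without wild-type 3, 7 replication genes were called, where 3.12% of all tested genes were called higher. Without wild-type 1 or wild-type 2 no more than 2 were, where 0.00834% and 0.308% of all tested genes were.

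**Figure D5:**
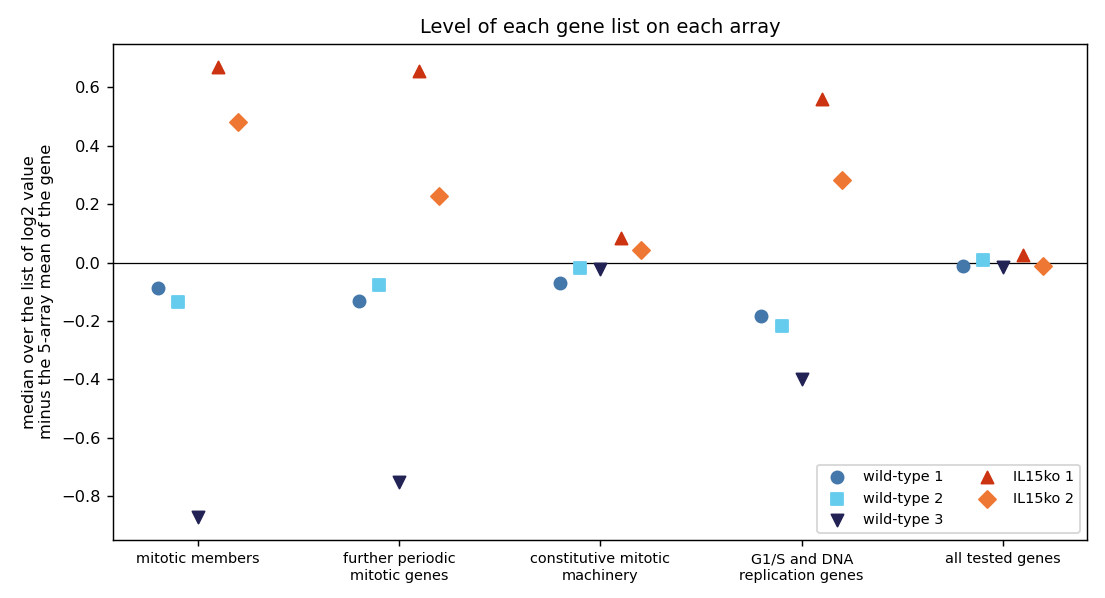
Median over each gene list of the log2 value minus the 5-array mean of the gene (y axis), 1 mark per array. In the mitotic members wild-type 3 is at -0.87, wild-type 1 and 2 at -0.09 and -0.14, and IL15ko 1 and 2 at 0.67 and 0.48; the constitutive machinery lies between -0.07 and 0.08 on all arrays.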

How the data were processed

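RNA of sorted thymic NKT cells was hybridised, 1 sample per 1-colour (Cy3) Agilent array, for 3 wild-type and 2 IL15ko samples. Per the file headers, Agilent Feature Extraction 10.7.1.1 made the deposited linear intensities. Its processed signal had the background subtracted and detrended inside each array, and arrays were not scaled to each other. The authors' deposited value table holds linear intensities too. Over spots well above background, 100% of its values lay within 1 unit of the spot median minus the local background plus a constant for the array, of unknown origin. Its column medians were 27.2, 24.6 and 29.0 for wild-type and 26.4 and 16.2 for IL15ko. The submitters' processing notes name limma as well, with no settings.

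Control spots and outlier-flagged spots were dropped, spots of a probe were averaged as log2 values, and each array was scaled by the 75th percentile of the 18517 probes rated well above background everywhere. Accessions without versions were matched to RefSeq names of GRCm38.p6, which gave 1 symbol for 26425 of 55681 probes and left 29256 unnamed. No probe was saturated. The 11996 genes rated well above background on at least 2 arrays entered 1 fit, IL15ko against wild-type, by lmFit and eBayes (limma 3.58.1, R 4.3.3), with no covariate, 3 residual and 2.28 prior degrees of freedom and Benjamini-Hochberg adjustment over all of them at 0.05. Errors are moderated standard errors. The fit was tested on simulated data. The number of arrays limits the precision. The normexp alternatives used the median spot signal and median background, in place of the planned mean spot signal, which was not used here. In all, 17 alternatives were tried.

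The members and lists were chosen with earlier results of these data known. Values on every array were to be given for called members, for members not detected throughout a group, and for the smallest-p and lowest-difference member of each role group. Of the further lists, the 4 smallest p-values and the lowest difference were to be named. Other members and genes with values were added after their values were seen.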

Additional observations from a re-analysis of the deposited data

How the results depend on the processing

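The count of members called higher was 0 after normexp (offset 50), 0 without the filter on dim probes and 0 with the mean of wild-type 1 and 2 in place of both, with 16, 18 and 27 members at an unadjusted p under 0.05. The count of members called was 4 in the authors' deposited table (3.53%), 11 with quantile normalization (3.78%) and 12 with the 75th percentile over all probes (3.74%). It was 11 when detection on all 5 arrays was required (7.29%) and 13 with a trended, robust variance prior (6.84%). In these last settings the share of all genes rose too. Leaving out wild-type 1, wild-type 2 or wild-type 3 gave 0 (0.00834%), 0 (0.308%) and 5 (3.12%). With the replicate block, which rests on numbers shared by 2 pairs, 2 members were called, Kif15 and Nuf2 (1.15%). Deviations of same-numbered arrays from their group means had correlations of -0.13 and 0.21. Those of the 2 IL15ko arrays mirror each other, so these values cannot show whether the numbers are pairs. The numbers were not taken as pairs. The 7 calls all remained under median centring and quantile normalization. The members' median log2 difference lay between 0.67 and 1.1 in every alternative, and 0 members were called lower in any.

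The shares of all tested genes given above stand beside the list counts too. No share was given there for 2 settings. When dim probes were kept, 0 of the 20022 genes were called higher. After normexp (offset 50), 0 of the 11996 tested genes were. A count of 0 in these 2 settings thus does not set the members or a list apart from all genes. Further periodic genes gave 6 calls, and 0 with normexp and an offset of 50, 0 without the filter and 14 with the trended prior. They gave 1 with wild-type 1 and 2 averaged, 1 with the replicate block and 0 to 8 without 1 wild-type array. The constitutive machinery gave 1 call, and 0 with normexp and an offset of 50, without the filter, with wild-type 1 and 2 averaged and with the replicate block. It gave no more than 1 without 1 wild-type array. The replication genes gave 13 calls, and 0 with normexp and an offset of 50, without the filter and with wild-type 1 and 2 averaged. They gave 21 among genes on all 5 arrays, 23 with the trended prior, 3 with the replicate block, and up to 7 without 1 wild-type array. The causes were not tested. Without the filter, 20022 genes were adjusted over and the median log2 difference of all of them was 0.24. With normexp and an offset of 50 the median over all tested genes was 0.22.

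Of the members' log2 differences, 8 turned sign. Bub3 lay between -0.062 and 0.15 without 1 array, below 0 only without IL15ko 2. Kif2c was at 0.63 and 0.41 with normexp and offsets of 50 and 0, 0.43 in the authors' table, 0.33 over its probes, 0.28 without wild-type 2, 1.02 without IL15ko 2 and 0.10 with wild-type 1 and 2 as a mean, and ran from -1.24 to 1.02 without 1 array. The dim array IL15ko 2 limits what can be measured below a scaled intensity of 34.0 there.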
